A study of Mus musculus with 6 samples.

Results

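The 41 mouse genes described here encode the enzymes that make and break down the cyclic nucleotides cAMP and cGMP. They were chosen by name among the 56980 genes of the table, as the adenylyl cyclases (*Adcy*, 10 genes), the guanylyl cyclases named *Gucy1* or *Gucy2* (9 genes) and the cyclic nucleotide phosphodiesterases (*Pde1* to *Pde11*, 22 genes). The natriuretic peptide receptors *Npr1* and *Npr2*, which carry a guanylyl cyclase domain under another name, are given with the inputs to cGMP. The first 2 families form the synthesis side, 19 genes, and the third the breakdown side, 22 genes. *Pde6d* is named with the phosphodiesterases, but its product is a chaperone that carries lipid-modified proteins and has no catalytic activity. It is counted among the 22 by its name and left out of the summed levels. RNA-Seq was carried out on bone marrow mesenchymal stem cells (MSCs) of female mice that had lost their ovaries (OVX) at 8 weeks of age, a model of estrogen deficiency. After their gut microbiota had been depleted with antibiotics, the mice received fecal microbiota transplantation (FMT) for 8 weeks, from sedentary OVX donors in the TranspCtrl group (3 samples) or from exercised OVX donors in the TranspExer group (3 samples). The surgery, the antibiotics and the transplantation were thus common to both groups, and the stated difference was the donor. Whether the groups were housed, harvested and cultured together is not given in the sources used here. The cells were what remained of flushed marrow after 7 days of culture and washing, with no sorting, and the labels do not say whether the samples of a group were separate mice or cultures, so the p-values measure the spread between these samples, which may be technical.

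cAMP is made from ATP by adenylyl cyclases, which stimulatory G proteins (Gs) switch on and inhibitory ones (Gi) hold back. cGMP is made from GTP by guanylyl cyclases, either a soluble pair of subunits that senses nitric oxide or membrane receptors for natriuretic and related peptides. Phosphodiesterases hydrolyze both messengers, some only cAMP, some only cGMP and some both. In the osteoblast lineage, cAMP is a messenger through which parathyroid hormone acts.

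The libraries held 17647638 to 21319166 counts, so that 3 counts, the floor used here for a gene that cannot be told from absent, equalled 0.139 to 0.174 CPM, which are counts scaled to a common library size with TMM factors. This floor covers counting error only. TranspCtrl replicate 1 stood apart from its group. In log2 CPM it lay 60.2 and 62.8 from the others of its group, which were 37 apart, against 42.8 to 43.9 within TranspExer and 82.7 to 110 between groups. All 10 stromal markers passed the low-count filter, and their summed CPM was 11897 to 19536 in TranspCtrl and 12745 to 13947 in TranspExer. Of these markers, 2 were higher (*Eng* and *Vcam1*) and 7 lower in TranspExer by edgeR's quasi-likelihood test. Markers of other cells were present and differed between the groups. All 10 endothelial markers were higher in TranspExer (summed CPM 211 to 266 against 721 to 788), none at 0. Of 10 pericyte and smooth muscle markers, 7 were higher, among them *Rgs5* and *Cspg4*, and 3 lower (*Acta2*, *Tagln* and *Cnn1*), with a sum of 2728 to 3156 against 2105 to 2286. Of 8 macrophage markers 2 were higher and 1 lower (7698 to 11950 against 5950 to 6463). The lower sum was that of *Lyz2*, and the other 7 summed to 2720 to 2862 against 3231 to 3357. Of 8 granulocyte markers 4 were higher (1939 to 2890 against 3663 to 3942). Of 8 B cell markers 7 were lower (3446 to 5949 against 581 to 630), and of 5 megakaryocyte markers 3 were higher (257 to 315 against 474 to 505). Of 6 adipocyte markers 4 passed the low-count filter and 3 were higher (72.6 to 130 against 164 to 186), with *Lep* at 0 in every library, while the 5 erythroid markers summed to at most 0.844 CPM. In such mixed cultures, fewer cells of a type and less RNA per cell cannot be told apart, and the part of these markers in the results below was not tested.

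Cyclase genes were higher in the TranspExer group more often than phosphodiesterase genes by count, and the 3 genes past both thresholds were cyclases. The sides were not tested against each other. Of the 41 genes, 26 passed the low-count filter, 10 for synthesis and 16 for breakdown. At an adjusted p-value of 0.05 over all 15190 genes tested, 7 of the 10 synthesis genes were higher in TranspExer, none was lower and 3 did not pass. No synthesis gene was lower at an unadjusted p-value of 0.05 either, nor with DESeq2 or limma voom. Of the 16 breakdown genes, 5 were higher, 1 was lower and 10 did not pass, 1 of these being *Pde6d*. Over all genes tested, 16.6% were higher and 15.5% lower. *Adcy4*, *Adcy5* and *Gucy1a1* also passed the fold change of 2 that defines DEGs, which 3.5% of all genes did upward and 5.28% downward. None of the 3 passed when the fold change of 2 was itself tested within the model (glmTreat). No gene of the breakdown side passed both thresholds with edgeR, DESeq2 or limma voom. At an unadjusted p-value of 0.05 from edgeR, 7 passed upward and 2 downward. The study singled out *Adcy4* and *Adcy5* on these samples, so their values here are not independent evidence of the direction. The paper also reports both genes as higher in MSCs of the TranspExer group by RT-qPCR. The median log2 fold change was 0.41 for synthesis and 0.04 for breakdown, against -0.02 over all genes. The groups did not overlap with TranspExer higher in 14 of the 26 genes, 7 of each side, and with TranspExer lower in 2, *Pde1a* and *Pde7a*, against 27.2% and 25.1% of all genes.

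**Figure D1:**
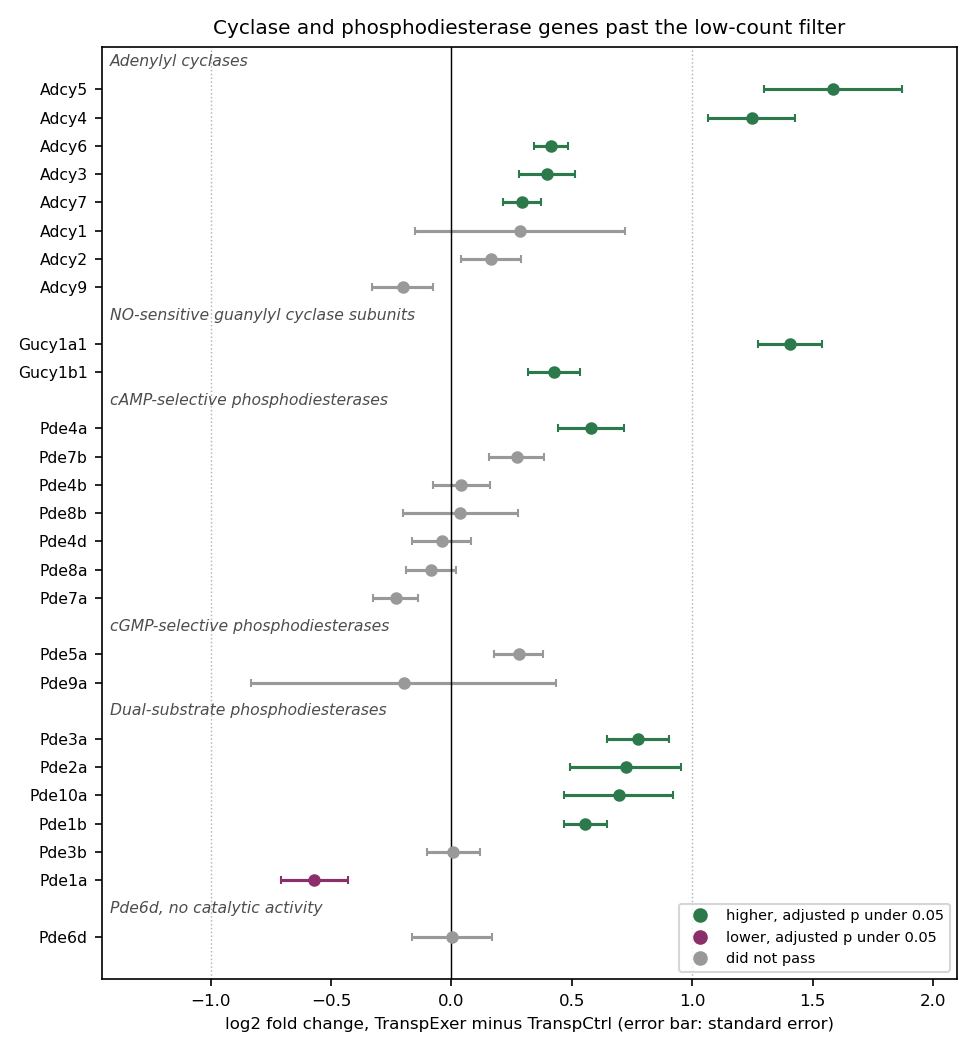
Log2 fold change of each of the 26 genes past the filter, TranspExer minus TranspCtrl, with its standard error as bar. Green points were higher and the purple point lower at an adjusted p-value of 0.05, grey points did not pass, and dotted lines mark a fold change of 2. *Adcy5*, *Gucy1a1* and *Adcy4* lie to the right of the line, and the points of the cAMP-selective phosphodiesterases other than *Pde4a* lie between -0.23 and 0.27.

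These counts depended on the samples included and on scaling, as did those over all genes. The 7 synthesis genes became 4 without TranspCtrl replicate 3, TranspExer replicate 2 or TranspExer replicate 3, and the 5 higher breakdown genes became 3, 2 and 2 without TranspExer replicate 1, 2 and 3. Over all genes, the share called higher fell as well, from 16.6% to 13.2% without TranspCtrl replicate 3 and to 9.39%, 8.42% and 8.55% without TranspExer replicate 1, 2 and 3. Under upper-quartile normalization or scaling by library size alone, 9 genes were higher and 2 lower (81.8% of those called were higher), in place of 12 and 1 (92.3%). The shares over all genes were then 13.5% higher and 19.1% lower with upper-quartile normalization, and 13.3% and 19.5% with library size alone. Without TranspCtrl replicate 1, the library that stood apart, 11 were higher and 2 lower, against 22.1% and 19.6% of all genes. *Adcy4*, *Adcy5*, *Adcy6*, *Gucy1a1*, *Pde1b* and *Pde3a* passed in every one of the 14 alternatives. The test of a fold change of 2 within the model (glmTreat) is not among these 14.

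Among the 9 transmembrane adenylyl cyclases, 8 passed the filter and 5 were higher in TranspExer (62.5%, against 16.6% of all genes). *Adcy5* (ENSMUSG00000022840, chromosome 16, 35154877 to 35305738, plus strand, GRCm38), a form inhibited by Gi and by calcium, had 0.975, 1.79 and 1.76 CPM in TranspCtrl and 3.34, 5.399 and 4.91 CPM in TranspExer. Every TranspExer sample lay above every TranspCtrl sample, with TranspCtrl replicate 1 the lowest. The log2 fold change was 1.58 (standard error 0.29, 3.00-fold, adjusted p = 0.00526 from edgeR). *Adcy4* (ENSMUSG00000022220, chromosome 14, 55769057 to 55784095, minus strand), a form that G protein beta-gamma subunits can stimulate, had 4.29, 6.92 and 4.64 CPM in TranspCtrl and 12.2, 12.6 and 12.8 CPM in TranspExer. The TranspExer samples were nearly equal and the groups did not overlap. Its log2 fold change was 1.25 (standard error 0.18, 2.37-fold, adjusted p = 0.00199).

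The most abundant cyclases rose by less. *Adcy7* (ENSMUSG00000031659, chromosome 8), a beta-gamma responsive form common in blood cells, had 151, 147 and 139 CPM in TranspCtrl and 167, 183 and 185 CPM in TranspExer (log2 fold change 0.29, standard error 0.08, adjusted p = 0.0252). *Adcy3* (ENSMUSG00000020654, chromosome 12), the cyclase of primary cilia and olfactory neurons, had 47.4, 64.9 and 59.8 CPM against 73.2, 75.9 and 77.8 CPM (0.40, standard error 0.12, adjusted p = 0.0326). *Adcy6* (ENSMUSG00000022994, chromosome 15), the closest relative of *Adcy5*, had 36.7, 37.7 and 36.5 CPM against 47.3, 50.7 and 49.6 CPM (0.41, standard error 0.07, adjusted p = 0.00408). None of these 3 genes overlapped between groups, and the spread was narrowest for *Adcy6*. The call of *Adcy7* was lost in 8 of the 14 alternatives, with adjusted p-values up to 0.118, and that of *Adcy3* in 4, with up to 0.108 (each without 1 sample). Exons of *Adcy3* overlap *Cenpo* on the opposite strand, which had 248 counts per library on average against 1300 for *Adcy3*, and whether the counting used strand is not given in the sources used here.

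The other 3 adenylyl cyclases did not pass. *Adcy2*, another beta-gamma responsive form, had 11.7, 15.0 and 15.3 CPM in TranspCtrl and 15.7, 15.3 and 16.0 CPM in TranspExer (log2 fold change 0.16, standard error 0.12, adjusted p = 0.337). *Adcy9*, which responds little to forskolin, had 11.3, 9.54 and 10.6 CPM against 8.15, 9.11 and 10.02 CPM (-0.20, standard error 0.13, adjusted p = 0.250). *Adcy1*, stimulated by calcium and calmodulin, had 0.634, 0.564 and 0.279 CPM against 0.679, 0.348 and 0.744 CPM, near the floor. The groups overlapped for all 3 genes. The related *Adcy8* (0 to 3 counts) and the soluble, bicarbonate-sensitive *Adcy10* (0 to 1 count) were below the filter.

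Both subunits of the nitric oxide-sensitive guanylyl cyclase were higher in TranspExer, with the larger fold change for the alpha subunit. *Gucy1a1* (ENSMUSG00000033910, chromosome 3, 82092427 to 82145789, minus strand) had 5.56, 6.82 and 7.71 CPM in TranspCtrl and 18.4, 17.3 and 17.6 CPM in TranspExer. Its partner *Gucy1b1* (ENSMUSG00000028005, chromosome 3, 82032006 to 82074689, minus strand), whose product carries the heme that binds nitric oxide, had 10.5, 9.33 and 9.85 CPM against 14.3, 12.5 and 13.1 CPM. The groups did not overlap for either subunit. The log2 fold change was 1.41 for *Gucy1a1* (standard error 0.13, 2.65-fold, adjusted p = 0.000302) and 0.43 for *Gucy1b1* (standard error 0.11, 1.34-fold, adjusted p = 0.0206). The call of *Gucy1b1* was lost in 7 of 14 alternatives, with adjusted p-values up to 0.0889, and that of *Gucy1a1* in none. Per length (TPM, counts divided by gene length and scaled to a common total), *Gucy1a1* was at 0.361, 0.5001 and 0.536 of the level of *Gucy1b1* in TranspCtrl and at 0.882, 0.948 and 0.917 in TranspExer. The alternative subunits *Gucy1a2* (0 to 3 counts) and *Gucy1b2* (0 to 1 count) were below the filter, as were the 5 receptor guanylyl cyclases of the *Gucy2* group. Of these, *Gucy2c*, the intestinal guanylin receptor, had 0 to 6 counts, *Gucy2e* 1 to 4, *Gucy2g* 1 to 3, *Gucy2f* 0 to 1 and *Gucy2d* 0 in every library.

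The subunit genes lie next to each other on chromosome 3, 17737 bases apart and on the same strand, each with a start of its own. Their upstream sequences, and those of the other DEGs *Adcy4* and *Adcy5*, are shown because these genes carry the largest changes and the unequal fold changes of the pair. They are the bases before the RefSeq start (GRCm38.p6), without any that GENCODE M21 places in an exon, 5′ to 3′, with capitals for the GC box GGGCGG and for TGACG, the core of the cAMP response element (CRE), on either strand.
Gucy1a1, chr3:82145790-82145900, minus strand: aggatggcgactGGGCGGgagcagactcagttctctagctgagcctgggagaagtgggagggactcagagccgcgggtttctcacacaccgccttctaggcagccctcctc
Gucy1b1, chr3:82074712-82074961, minus strand: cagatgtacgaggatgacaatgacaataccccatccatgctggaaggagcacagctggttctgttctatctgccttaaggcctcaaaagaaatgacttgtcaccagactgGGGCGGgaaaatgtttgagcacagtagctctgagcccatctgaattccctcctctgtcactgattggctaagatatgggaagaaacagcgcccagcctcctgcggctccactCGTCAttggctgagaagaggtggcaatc
Adcy4, chr14:55784096-55784322, minus strand: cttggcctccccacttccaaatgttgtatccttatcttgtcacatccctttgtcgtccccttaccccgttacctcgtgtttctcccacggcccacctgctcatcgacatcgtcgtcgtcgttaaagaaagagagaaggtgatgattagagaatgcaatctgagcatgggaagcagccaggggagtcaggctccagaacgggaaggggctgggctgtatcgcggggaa
Adcy5, chr16:35154614-35154863, plus strand: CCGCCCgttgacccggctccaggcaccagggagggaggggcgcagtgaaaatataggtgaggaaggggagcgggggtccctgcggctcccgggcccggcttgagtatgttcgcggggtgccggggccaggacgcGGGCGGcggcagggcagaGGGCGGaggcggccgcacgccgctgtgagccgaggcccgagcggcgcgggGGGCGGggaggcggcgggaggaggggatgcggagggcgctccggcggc

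The stretches were 250 bases long for *Adcy5* and *Gucy1b1*, 227 for *Adcy4* and 111 for *Gucy1a1*. Those of *Adcy4* and *Gucy1a1* ended 23 and 139 bases upstream of the RefSeq start, so motif counts cover unlike windows. The *Adcy5* stretch held 4 GC boxes at 78.0% G and C, each subunit gene held 1, and *Adcy4* held neither motif. Of the 41 genes, 32 were matched in the RefSeq promoter table used here, 21 of them past the filter with 44 promoters among them. In the 250 bases before the start, a GC box stood in 17 of these 44 (38.6%) and in 32.7% of 32851 mouse promoters, and TGACG in 7 (15.9%) and in 17.8%. The full CRE TGACGTCA, which contains TGACG, stood in none of the 44 and in 1.55% of all. A match of letters is a description, not a bound site.

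Of the cAMP-selective phosphodiesterases, 1 of 7 tested genes was higher (14.3%, against 16.6% of all genes) and none was lower. *Pde4a* (ENSMUSG00000032177, chromosome 9), of the rolipram-sensitive family, had 15.0, 21.02 and 20.6 CPM in TranspCtrl and 26.3, 29.1 and 29.2 CPM in TranspExer. The groups did not overlap (log2 fold change 0.58, standard error 0.14, 1.49-fold, adjusted p = 0.0155), and the call was lost without TranspExer replicate 2 or 3 (adjusted p = 0.0621 and 0.0650). Its relatives did not pass. *Pde4b* had 25.7, 22.3 and 19.97 CPM against 22.9, 25.3 and 21.8 CPM (0.04, standard error 0.12, adjusted p = 0.806). *Pde4d* had 7.22, 7.08 and 8.17 CPM against 7.37, 7.61 and 6.90 CPM (-0.04, standard error 0.12, adjusted p = 0.818). *Pde4c* had 0 to 4 counts and was not tested.

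The PDE7 and PDE8 enzymes hydrolyze cAMP at low concentrations, and none of their 4 genes passed. *Pde7a* had 30.1, 29.1 and 28.1 CPM in TranspCtrl and 25.0, 26.9 and 22.5 CPM in TranspExer, without overlap (log2 fold change -0.23, standard error 0.09, adjusted p = 0.0934). *Pde7b* lay the other way, also without overlap, with 15.7, 19.8 and 20.02 CPM against 21.8, 22.7 and 22.4 CPM (0.27, standard error 0.11, adjusted p = 0.104). *Pde8a* had 47.2, 61.3 and 58.9 CPM against 52.2, 52.7 and 53.0 CPM (-0.09, standard error 0.10, adjusted p = 0.552). The 3 TranspExer samples of *Pde8a* lay above TranspCtrl replicate 1 and below both other controls, and without that replicate the gene passed as lower (-0.19, adjusted p = 0.0159). *Pde8b* had 3.12, 2.77 and 2.37 CPM against 3.55, 2.84 and 2.08 CPM (0.04, standard error 0.24, adjusted p = 0.916).

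Of the cGMP-selective enzymes, neither tested gene passed. *Pde5a*, the target of sildenafil, had 23.2, 28.4 and 23.5 CPM in TranspCtrl and 31.4, 30.5 and 29.2 CPM in TranspExer. The groups did not overlap, and the log2 fold change of 0.28 (standard error 0.10) had an adjusted p of 0.0707, which passed without TranspCtrl replicate 2 (0.38, adjusted p = 0.0267). *Pde9a* had 1.02, 0.564 and 0.232 CPM against 0.314, 0.290 and 0.943 CPM, and the groups overlapped. The photoreceptor genes *Pde6a* (0 to 4 counts), *Pde6b* (0 to 2) and *Pde6c* (0 in every library) were below the filter. *Pde6d*, the chaperone, had 19.2, 15.1 and 12.7 CPM against 15.9, 17.6 and 13.6 CPM (0.00, standard error 0.17, adjusted p = 0.993).

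The enzymes that act on both messengers held most of the calls on the breakdown side, with 4 of 6 tested genes higher (66.7%, against 16.6% of all genes) and 1 lower (16.7%, against 15.5%). *Pde3a* (ENSMUSG00000041741, chromosome 6), which hydrolyzes cAMP and is inhibited by cGMP, had 14.2, 19.6 and 19.3 CPM in TranspCtrl and 30.6, 30.1 and 30.2 CPM in TranspExer (log2 fold change 0.78, standard error 0.13, 1.71-fold, adjusted p = 0.00367). Its partner *Pde3b*, through which insulin lowers cAMP in fat cells, had 26.5, 30.9 and 30.7 CPM against 26.2, 29.8 and 32.6 CPM (0.01, standard error 0.11, adjusted p = 0.963). The groups overlapped for *Pde3b* and not for *Pde3a*. The calcium and calmodulin-stimulated enzymes differed in opposite directions. *Pde1b* (ENSMUSG00000022489, chromosome 15) had 26.3, 22.4 and 25.1 CPM against 35.5, 37.4 and 35.7 CPM (0.56, standard error 0.09, 1.47-fold, adjusted p = 0.00288). *Pde1a* (ENSMUSG00000059173, chromosome 2), the only gene of the 26 that was lower, had 6.58, 6.31 and 6.87 CPM against 4.60, 4.82 and 3.92 CPM (-0.57, standard error 0.14, adjusted p = 0.0181). Its call was lost without TranspCtrl replicate 3, TranspExer replicate 1 or TranspExer replicate 3 (adjusted p = 0.0565, 0.0523 and 0.0675). *Pde1c* had 5 to 13 counts (31 over the TranspCtrl samples and 21 over the TranspExer samples) and was not tested.

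*Pde10a* (ENSMUSG00000023868, chromosome 17), best known from the striatum, had 1.76, 2.51 and 2.51 CPM in TranspCtrl and 2.93, 3.83 and 4.22 CPM in TranspExer. The groups did not overlap (log2 fold change 0.69, standard error 0.23, adjusted p = 0.0481), but the call was lost in 9 of 14 alternatives, including each of the 6 that left out a sample (adjusted p up to 0.167). *Pde11a* had 0 to 4 counts, 7 in TranspCtrl and 0 in TranspExer, and was not tested.

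*Pde2a* (ENSMUSG00000110195, chromosome 7, 101421691 to 101512827, plus strand), whose product breaks down cAMP faster when cGMP binds it, had 49.9, 87.3 and 101 CPM in TranspCtrl and 129, 118 and 148 CPM in TranspExer. TranspCtrl replicate 1 was far below the other samples, and the groups did not overlap. The log2 fold change was 0.72 (standard error 0.23, 1.65-fold, adjusted p = 0.0449), and the call was lost without TranspCtrl replicate 2 or any 1 TranspExer sample (adjusted p = 0.0620 to 0.152). It was kept without TranspCtrl replicate 1, the library that stood apart, but with a log2 fold change of 0.48 (adjusted p = 0.000907), and with limma voom of 0.43 (adjusted p = 0.00448). Exons of *Pde2a* are shared on the same strand with *Gm45837* (ENSMUSG00000030653), a protein-coding gene model that received 575, 265 and 0 counts in TranspCtrl and 403, 649 and 406 counts in TranspExer. That was 36.0%, 13.5% and 0% of the sum of both genes in TranspCtrl, and 14.1%, 24.3% and 11.998% in TranspExer. TranspCtrl replicate 1, lowest for *Pde2a*, thus had the largest share on *Gm45837*. The sum of both was 78.0, 101 and 101 CPM in TranspCtrl (93.4 ± 13.3, SD, n = 3) and 150, 155 and 168 CPM in TranspExer (158 ± 9.32, SD, n = 3). Fitted as 1 gene, an alternative added after the data were seen, the sum changed by 0.76 on the log2 scale (standard error 0.11, 1.69-fold, adjusted p = 0.00241). With each sample left out in turn the log2 fold change was 0.64 to 0.82, with an adjusted p of at most 0.0165.

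**Figure D2:**
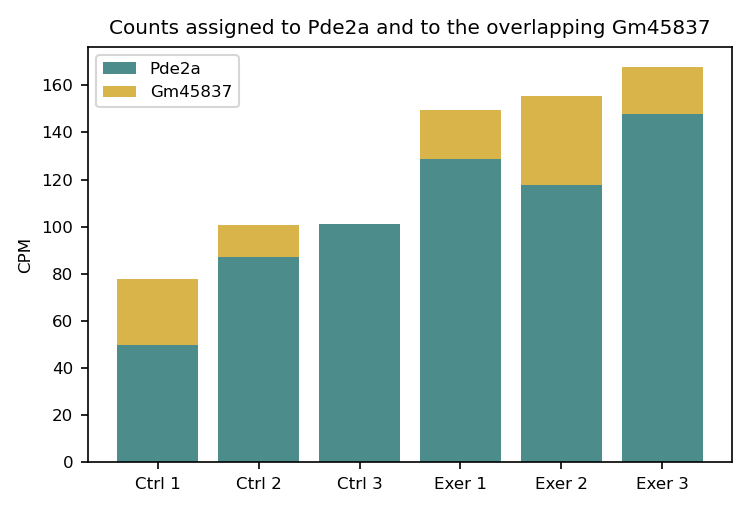
CPM of *Pde2a* (teal) and of the overlapping gene model *Gm45837* (yellow), stacked for each TranspCtrl (Ctrl) and TranspExer (Exer) sample. The stacked sum is 78.0 to 101 CPM in TranspCtrl and 150 to 168 CPM in TranspExer, while the part on *Gm45837* runs from 0% to 36.0%.

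**Figure D3:**
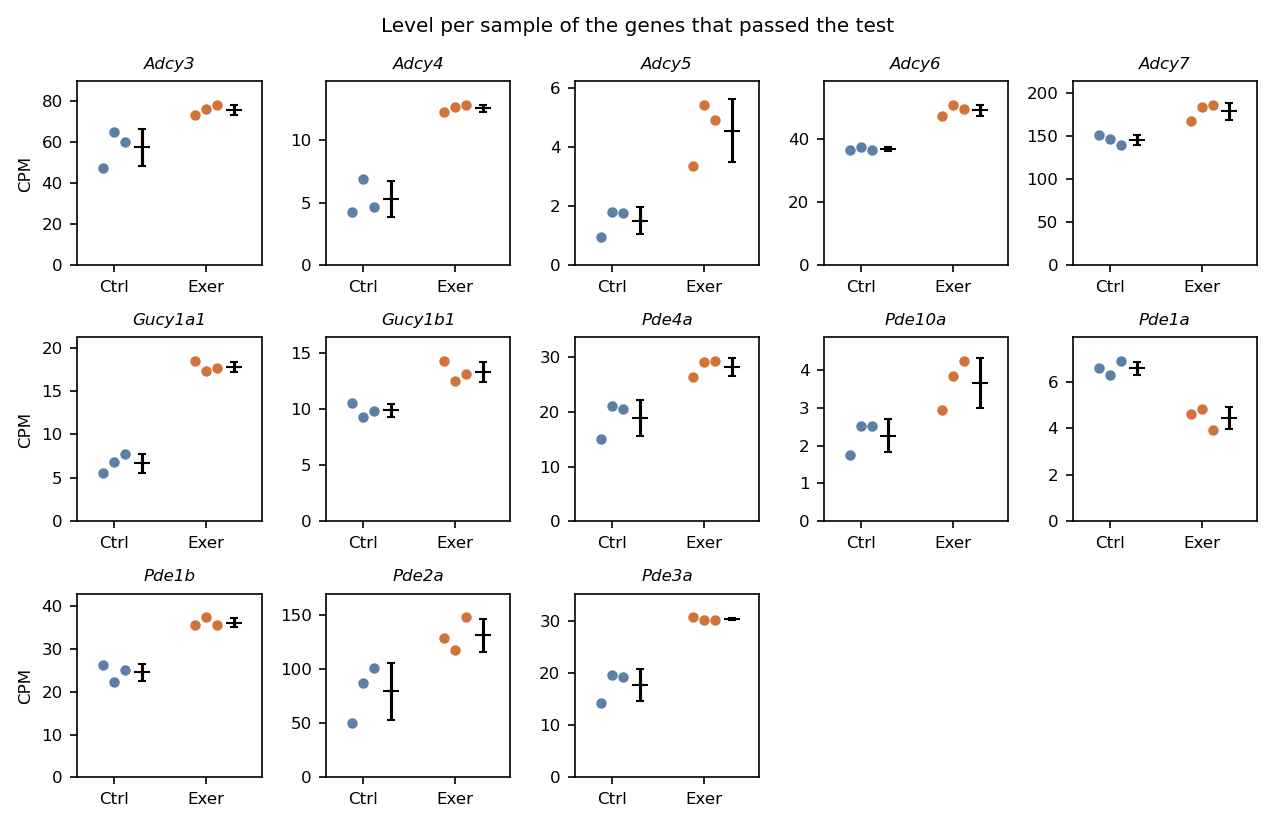
CPM in each sample of the 13 genes that passed the test, TranspCtrl (Ctrl, blue) and TranspExer (Exer, orange), with the mean and SD of 3 samples in black and every axis starting at 0. The groups do not overlap in any panel, and *Pde1a* is the panel in which TranspExer lies lower.

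Subfamily partners within one library were compared as ratios, which do not depend on library scaling. Subfamilies were those whose members share a number in the symbol and differ by a letter (*Gucy1*, *Pde1* and so on), which adenylyl cyclases do not have. In 5 of them exactly 2 genes were tested, a rule set after the values were seen. *Gucy1a1* over *Gucy1b1*, in TPM, was 0.466 ± 0.0923 (SD, n = 3) in TranspCtrl and 0.916 ± 0.0331 in TranspExer. *Pde1b* over *Pde1a* was 5.28, 4.70 and 4.84 in TranspCtrl and 10.2, 10.3 and 12.1 in TranspExer, a difference of 1.13 on the log2 scale. *Pde3a* over *Pde3b* was 0.286, 0.339 and 0.337 against 0.625, 0.540 and 0.496 (0.79 on the log2 scale), so *Pde3b* stayed the more abundant per length. *Pde7b* over *Pde7a* was 1.93, 2.52 and 2.64 against 3.24, 3.13 and 3.69 (0.51). The gene with the larger log2 fold change was written on top, so the direction of the ratios is set by that choice. In these 4 pairs the groups did not overlap. The exact two-sided permutation p was 0.1 each, the smallest that 3 against 3 samples can give, and 0.125 after adjustment over the 5 pairs. Among all single genes tested, 27.2% did not overlap with TranspExer higher and 25.1% with TranspExer lower. No such share was taken for ratios of other gene pairs. *Pde8b* over *Pde8a* overlapped (0.0588 to 0.0968 against 0.0576 to 0.0997, exact permutation p = 0.8).

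**Figure D4:**
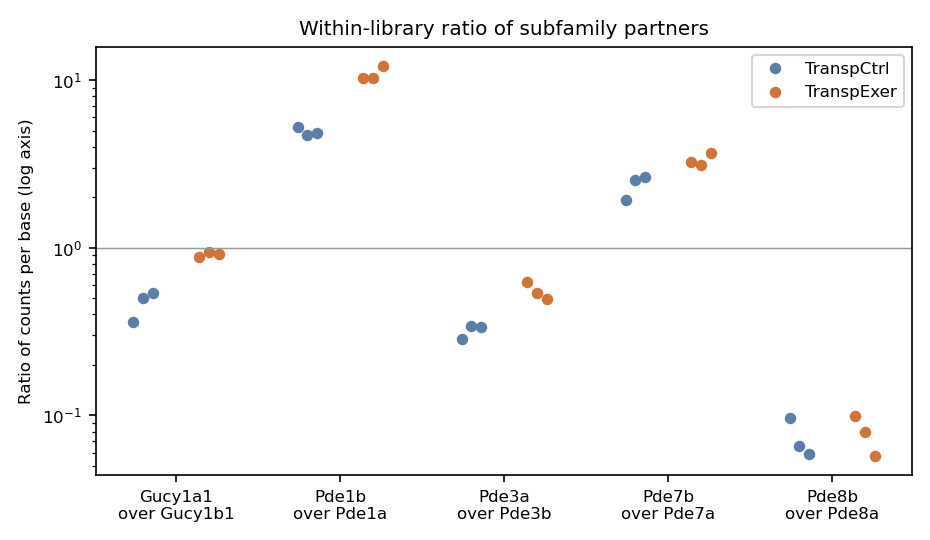
Ratio of TPM of the 2 tested genes of 5 subfamilies in each library, on a log axis, TranspCtrl in blue and TranspExer in orange. The groups separate for the first 4 pairs and overlap for *Pde8b* over *Pde8a*.

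Per length, the summed adenylyl cyclases were at 101, 113 and 104 TPM in TranspCtrl (106 ± 6.04, SD, n = 3) and 123, 136 and 138 TPM in TranspExer (132 ± 7.95), a ratio of 1.25. *Adcy7* made up 48.7% of this sum in TranspCtrl and 46.5% in TranspExer, *Adcy3* 24.3% and 25.1%, and *Adcy6* 12.2% and 12.7%. The cyclases with the largest fold changes were minor parts of it, *Adcy4* with 3.03% and 5.65% and *Adcy5* with 0.426% and 1.00%. The *Gucy* genes, without *Npr1* and *Npr2*, summed to 9.63 ± 0.358 TPM in TranspCtrl and 16.5 ± 0.467 TPM in TranspExer (n = 3 each), a ratio of 1.71. The phosphodiesterases, *Pde6d* left out, summed to 155, 191 and 191 TPM against 209, 217 and 227 TPM, a ratio of 1.22. Within them, the cAMP-selective genes held 88.8, 103 and 97.8 TPM against 97.2, 104 and 99.3 TPM, with overlap, and the dual-substrate genes 58.3, 78.9 and 85.4 TPM against 103, 103 and 118 TPM, a ratio of 1.45. *Pde2a* was the largest item in 5 of the 6 libraries, with 16.4% to 26.9% of the phosphodiesterase sum in TranspCtrl and 27.4% to 33.0% in TranspExer, counts on *Gm45837* not included. In TranspCtrl replicate 1, *Pde8a* was slightly above it, at 16.8%. These sums were not tested.

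**Figure D5:**
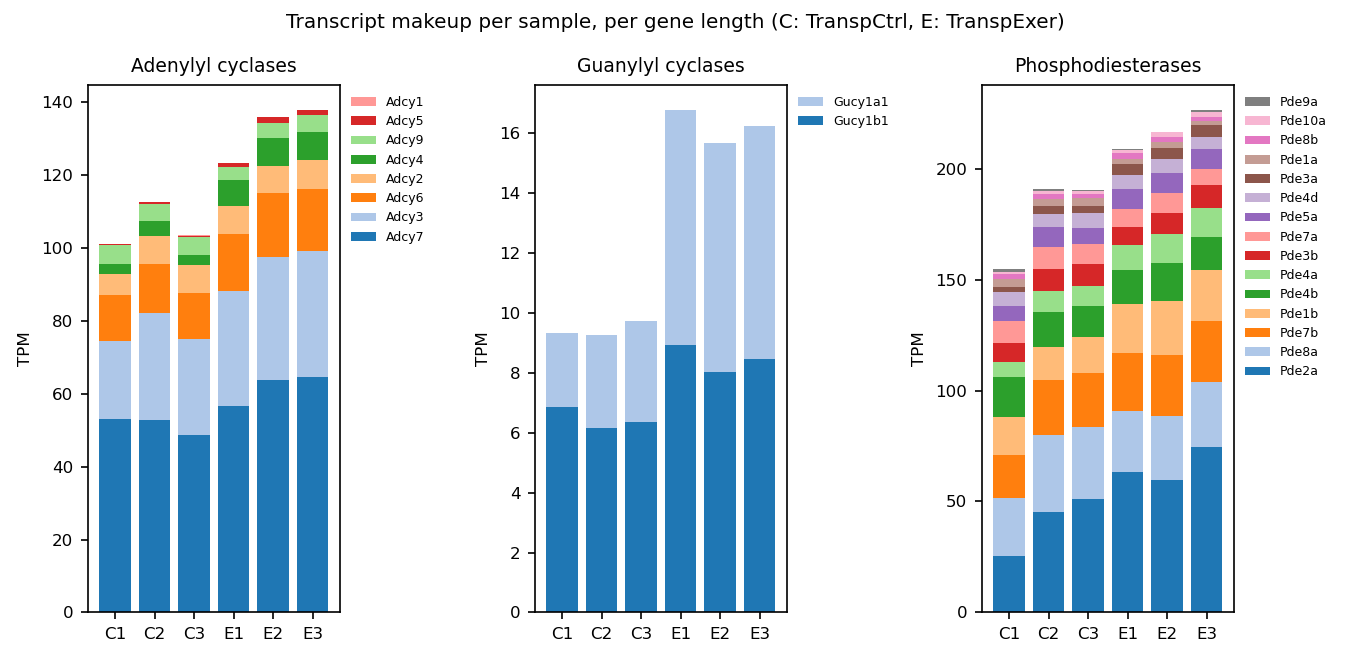
TPM of the tested adenylyl cyclases, guanylyl cyclases and phosphodiesterases (without *Pde6d*), stacked by gene for TranspCtrl replicates (C1 to C3) and TranspExer replicates (E1 to E3). *Adcy7* is the largest adenylyl cyclase band, *Gucy1a1* and *Gucy1b1* reach similar heights in TranspExer, and the *Pde2a* band is smallest in C1.

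The other genes of the pathway were read from lists of its parts, whose counts stand beside the same background of 16.6% higher and 15.5% lower. Of 13 genes for protein kinase A, its inhibitors, the Epac exchange factors and the cGMP-dependent kinases, 7 were higher and none lower, and 4 were higher without any 1 TranspExer sample. The cGMP-dependent kinase genes *Prkg1* (log2 fold change 0.08, adjusted p = 0.587) and *Prkg2* (0.27, adjusted p = 0.268) did not pass, and whether they differ from the other 11 was not tested. *Rapgef4*, which encodes Epac2, had 3.07, 4.10 and 3.62 CPM in TranspCtrl and 7.89, 7.26 and 8.24 CPM in TranspExer (log2 fold change 1.12, adjusted p = 0.00148). *Rapgef3*, which encodes Epac1, had 5.36, 4.51 and 4.55 CPM against 9.14, 9.70 and 8.09 CPM (0.90, adjusted p = 0.00260), and the kinase inhibitor gene *Pkib* 11.6, 9.85 and 10.4 CPM against 17.2, 18.1 and 15.8 CPM (0.68, adjusted p = 0.00302). None of these 3 overlapped between groups.

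Upstream, 3 of 7 genes for G alpha subunits that act on adenylyl cyclase were higher and none lower. They were *Gnaz* (log2 fold change 1.16, adjusted p = 0.00796) and *Gnai2* (0.60, adjusted p = 0.00997), which encode inhibitory subunits, and *Gnas*, which encodes the stimulatory one. *Gnas* had 522, 860 and 886 CPM in TranspCtrl and 1179, 1113 and 1090.1 CPM in TranspExer (0.58, adjusted p = 0.0472), and its log2 fold change was 0.37 without TranspCtrl replicate 1 (adjusted p = 6.10e-05). Of 18 receptors coupled to Gs, 12 passed the filter, 3 were higher and 2 lower. The higher ones were *Adora2a*, an adenosine receptor (0.77, adjusted p = 0.00514), *Calcrl*, of the adrenomedullin and CGRP receptors (0.59, adjusted p = 0.00741), and *Ptger2*, a prostaglandin E2 receptor (0.51, adjusted p = 0.00747). The lower ones were *Calcr*, the calcitonin receptor, with 1.27, 0.513 and 1.07 CPM against 0.105, 0.116 and 0.149 CPM, at or under the floor (adjusted p = 0.00482), and *Pth1r*, the parathyroid hormone receptor, with 23.9, 37.6 and 39.5 CPM against 20.4, 20.03 and 19.1 CPM (-0.76, adjusted p = 0.0146). Of 11 tested receptors coupled to Gi, 2 were higher and 3 lower. The apelin receptor gene *Aplnr* had 3.66, 6.87 and 6.92 CPM against 18.1, 17.3 and 18.7 CPM (1.63, adjusted p = 0.00132), and *Cxcr4* was higher by 0.81 (adjusted p = 0.00971). The chemokine receptor gene *Ccr2* (-0.68, adjusted p = 0.00135), *Hcar2* (-1.12, adjusted p = 0.0169) and *P2ry12* (-0.35, adjusted p = 0.0416) were lower.

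Among 5 tested inputs to cGMP, 3 were higher and 1 lower. The nitric oxide synthase genes *Nos3* (log2 fold change 1.10, adjusted p = 0.00140) and *Nos2* (0.91, adjusted p = 0.00770) were higher. So was *Npr1*, a natriuretic peptide receptor with its own guanylyl cyclase domain, with 0.341, 0.667 and 0.372 CPM against 1.62, 1.97 and 2.93 CPM (2.24, adjusted p = 0.00342). The related *Npr2* was more abundant and did not pass, with 19.9, 17.5 and 19.6 CPM against 17.98, 14.5 and 17.5 CPM (-0.19, adjusted p = 0.234). *Npr3*, the clearance receptor, had 50.3, 63.0 and 65.3 CPM against 37.2, 36.4 and 39.1 CPM and was lower (-0.66, adjusted p = 0.00329). Of 13 tested anchoring proteins, exporters and channels, *Akap10* was higher (0.26, adjusted p = 0.0280) and *Akap9* lower (-0.55, adjusted p = 0.0178). Of 8 genes of the CREB family and its coactivators, *Crtc2* (0.36, adjusted p = 0.0121) and *Atf1* (0.62, adjusted p = 0.0290) were higher and none was lower. Of 11 tested genes that cAMP is known to induce, 3 were higher, *Fos* (0.69, adjusted p = 0.000683), *Dusp1* (0.74, adjusted p = 0.000792) and *Rgs2* (0.52, adjusted p = 0.0167), and *Nr4a2* was lower (-0.78, adjusted p = 0.0397). Of the 32 genes called in these lists, 19 kept their call in every fit with 1 sample left out that tested them. These alternatives were added after the data were seen. All 32 passed without TranspCtrl replicate 1. Among the genes named, *Gnas*, *Pth1r*, *Hcar2*, *P2ry12*, *Akap10*, *Akap9*, *Crtc2*, *Atf1*, *Rgs2* and *Nr4a2* lost their call without at least 1 other sample. *Calcr*, counted among the 19, was not tested without TranspCtrl replicate 3, so its call was not kept there.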

How the data were processed

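RNA-Seq of BM MSCs was analysed in 3 TranspCtrl and 3 TranspExer samples, grouped by the labels. The authors deposited an estimated count (expected count) per gene, not normalized, of which 10.1% to 12.2% per library were not whole. Their processing notes name the build mm10, and the aligner and counting tool are not given in the sources used here. The paper names a TruSeq kit and the labels a stranded mRNA kit. Rows without a symbol (1542, 0.162% of counts) were kept under their Ensembl identifiers.

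Counts were rounded and tested with edgeR 4.0.16 in R 4.3.3 (filterByExpr, TMM, quasi-likelihood test with group as the only term, Benjamini-Hochberg adjustment over 15190 genes). Standard errors came from the fold change and F statistic. TPM used the lengths in the table. Alternatives included DESeq2 1.42.0, limma 3.58.1 (voom) and leaving out each sample.

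All tested genes of the families are named, and of each pathway list up to 3 per direction with the smallest adjusted p-values. Genes, lists and tests were chosen with earlier results of these data known. Marker genes, *Gm45837*, *Npr2*, *Prkg1* and *Prkg2* were named after their values were seen. Positions came from GENCODE M21 and promoters from RefSeq GRCm38.p6.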

Additional observations from a re-analysis of the deposited data

How the results depend on the processing

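The number of higher synthesis genes, 7, was 5 to 7 under the other normalizations, filters and tests and 4 to 7 with a sample left out. Past both thresholds it was 3 in all of these, but 0 when the fold change of 2 was tested within the model (glmTreat), which asks for a fold change reliably above 2. The number of higher breakdown genes, 5, was 4 to 6 under the other settings and 2 to 4 with a sample left out. The number of lower breakdown genes, 1, was 2 under upper-quartile normalization, library size only and limma voom, and 0 to 2 with a sample left out. The counts of 0 stayed at 0. *Pde7a* passed as lower under upper-quartile normalization (adjusted p = 0.0499) and library size only (0.0472), and limma voom called *Pde5a* (0.0113) and *Pde8a* (0.0263). The median log2 fold change of all genes was -0.02 in the main fit, -0.10 under upper-quartile normalization and -0.11 with library size only.

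Genes far from passing changed sign. With upper-quartile normalization and library size only, the log2 fold changes were -0.041 and -0.049 for *Pde4b*, -0.044 and -0.052 for *Pde8b*, -0.069 and -0.076 for *Pde3b*, and -0.082 and -0.090 for *Pde6d*. With no filter and with the filter of 1 CPM they were -0.0029 and -0.018 for *Pde3b*, and -0.0094 and -0.027 for *Pde6d*. With limma voom they were 0.27 for *Pde9a* and -0.059 for *Pde3b*. With a sample left out, the ranges were -0.0076 to 0.53 for *Adcy1*, -0.044 to 0.14 for *Pde4b*, -0.080 to 0.026 for *Pde4d*, -0.17 to 0.21 for *Pde8b*, -0.998 to 0.42 for *Pde9a*, -0.081 to 0.082 for *Pde3b* and -0.13 to 0.17 for *Pde6d*. The cause was not tested.

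With the replicate number as a block, 6 synthesis genes were higher, since *Adcy7* did not pass (adjusted p = 0.0523), and 5 breakdown genes were higher and 1 lower. The numbers are not shown to pair the samples, since deviations of same-numbered samples correlated at 0.0247, -0.00167 and 0.0416, and not every sample correlated best with its own number. At these depths, 15 of the 41 genes, with at most 13 counts in any library, fell below the low-count filter and were not compared.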
